A study of Mus musculus with 12 samples.

Results

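The 10 genes described here mark the mural cells of blood vessels, the smooth muscle cells of arteries and the pericytes of capillaries. They were taken by symbol from a table of 52336 genes: 6 genes of the contractile apparatus (Acta2, Tagln, Cnn1, Myh11, Smtn and Lmod1) and 4 genes of pericytes and their receptors (Rgs5, Pdgfrb, Cspg4 and Notch3). RNA sequencing had been done on 12 libraries of cells isolated from the hearts of wild type mouse pups, 3 in each of 4 groups: NAC MI, saline MI, NAC sham and saline sham. Pups had been injected each day from postnatal day 0 to 1 with N-acetylcysteine (NAC), a thiol antioxidant, at a high dose in a saline buffered with HEPES (25 mM HEPES, 140 mM NaCl), or with the saline control. On day 2 the left anterior descending artery of the heart was occluded, which causes a myocardial infarction (MI), or a sham operation was done, and all hearts were taken on day 3. Hearts had been pooled, digested and passed through a kit that selects neonatal cardiomyocytes, the muscle cells of the heart. The labels name the left ventricle and the series text the whole ventricle. Nothing says that replicates came from separate litters, so a p-value here compares groups only with the variation among these libraries, which may be technical.

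Mural cells wrap the endothelial tube. Arterial smooth muscle contracts through smooth muscle myosin and actin, with calponin, smoothelin, leiomodin and transgelin on its thin filaments, and many of these genes are driven by the transcription factor SRF with its partner myocardin. Pericytes follow PDGF-B from the endothelium through the receptor PDGFRB, and endothelial Notch ligands signal to NOTCH3 on mural cells. The contractile genes are not exclusive to vessels: smooth muscle actin and calponin are also made by immature cardiomyocytes, and smooth muscle actin by activated fibroblasts. The kit used is meant to keep cardiomyocytes rather than mural cells, and in bulk libraries fewer cells of a type and less RNA per cell cannot be told apart.

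The promoters of 4 members are shown because Cnn1, Rgs5 and Notch3 are the members that passed a test below, and Acta2 is the most abundant. Each runs from 250 bases before to 50 bases after the start given by RefSeq (GRCm38.p6), on the strand of the gene. Capitals mark the 10-letter boxes that resemble the CArG box, the site of SRF, and the hexamer CATTCC or its reverse complement, the core of the site of TEAD factors, and all of them fall in Acta2.
Acta2, chr19:34255324-34255623, minus strand: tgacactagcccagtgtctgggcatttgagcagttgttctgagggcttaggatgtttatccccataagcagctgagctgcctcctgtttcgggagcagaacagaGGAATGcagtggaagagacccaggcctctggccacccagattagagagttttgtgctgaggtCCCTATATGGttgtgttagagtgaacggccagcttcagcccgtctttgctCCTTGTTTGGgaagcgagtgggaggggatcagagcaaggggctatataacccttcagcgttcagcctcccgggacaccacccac
Cnn1, chr9:22099003-22099302, plus strand: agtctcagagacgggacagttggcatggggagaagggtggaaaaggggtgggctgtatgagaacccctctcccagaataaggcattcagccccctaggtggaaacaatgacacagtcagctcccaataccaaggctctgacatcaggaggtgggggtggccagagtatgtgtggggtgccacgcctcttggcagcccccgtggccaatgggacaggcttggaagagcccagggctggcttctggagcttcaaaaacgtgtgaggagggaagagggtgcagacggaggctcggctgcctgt
Rgs5, chr1:169655251-169655550, plus strand: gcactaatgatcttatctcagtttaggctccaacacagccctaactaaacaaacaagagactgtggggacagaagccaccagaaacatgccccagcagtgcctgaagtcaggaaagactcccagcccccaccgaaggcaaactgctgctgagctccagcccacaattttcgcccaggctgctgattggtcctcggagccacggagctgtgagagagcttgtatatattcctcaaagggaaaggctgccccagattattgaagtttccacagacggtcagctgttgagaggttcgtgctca
Notch3, chr17:32166841-32167140, minus strand: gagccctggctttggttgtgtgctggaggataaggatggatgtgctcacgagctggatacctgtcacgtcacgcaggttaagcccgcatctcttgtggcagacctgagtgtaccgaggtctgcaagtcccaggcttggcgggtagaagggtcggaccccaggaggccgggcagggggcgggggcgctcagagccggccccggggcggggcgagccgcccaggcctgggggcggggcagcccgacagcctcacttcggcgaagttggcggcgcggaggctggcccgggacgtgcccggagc

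The promoters of 7 of the 10 members were searched. Tagln and Myh11 had no matched promoter, and Pdgfrb was left out of the search. A full CArG box, 2 C, 6 letters that are each A or T, and 2 G, was in 0 of the 7 and in 1.63% of 32851 RefSeq promoters of the same length. Boxes with a single G or C among the 6 inner letters, a form searched after the sequences were seen, began 84 and 34 bases before the Acta2 start. They were in no other member searched. That form was in 8.50% of the promoters. CATTCC, searched on both strands, began 146 bases before the start in Acta2, 222 in Smtn and 130 in Lmod1, and was in 14.7% of the promoters. None of these motifs was in the windows of Cnn1, Rgs5, Cspg4 or Notch3. The 300 bases of the Notch3 window were 70.0% G or C, against a median of 52.7% over all promoters.

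Values are normalized read counts, the reads of a gene divided by a size factor of the library. Libraries held 14353842 to 25118341 reads. Mitochondrial genes took 21.7% to 30.2% of the reads of MI libraries and 7.65% to 27.7% of those of sham libraries. Of the 10 members, 9 passed a filter on low values, a mean of at least 10 over the 12 libraries. Tagln did not and was not tested. Title prefixes of unstated meaning were not shared between MI and sham libraries, so prefix and surgery cannot be told apart. Among the libraries, NAC sham 2 had the highest sum of 12 macrophage markers (21919, against 1219 to 1602 in the other NAC sham libraries) and the lowest sum of 12 cardiomyocyte markers. NAC MI 2 had the lowest macrophage sum of the MI libraries (1041, against 9097 to 13277 in the other MI libraries), and saline sham 3 the lowest quality weight of the saline sham libraries (0.268). Cardiomyocyte markers were high in all libraries, with sums from 254495 to 707016 and no marker at 0.

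Levels of different genes can be compared only per length. Per kilobase of exon, Acta2 averaged 5336 normalized reads over the 12 libraries and was the highest member in each of them. Rgs5 followed at 918, Smtn at 471, Pdgfrb at 313, Notch3 at 228, Cnn1 at 211, Myh11 at 87.6, Cspg4 at 77.6, Lmod1 at 12.97 and Tagln at 4.70 per kilobase. Rgs5 exceeded Smtn in 10 of 12 libraries, Pdgfrb exceeded Notch3 in 11, and Smtn exceeded Pdgfrb and Cspg4 exceeded Lmod1 in 12. Notch3 and Cnn1 changed places with surgery and kept this order in only 6 libraries, while Cnn1 against Myh11 and Myh11 against Cspg4 each kept it in 7. For those 3 pairs of neighbours no single order held over the 12 libraries. The group means of Cnn1 and Myh11 also changed places with surgery. Per kilobase, Cnn1 averaged 300 in NAC MI and 405 in saline MI, against 46.4 and 51.2 for Myh11. In NAC sham and saline sham Cnn1 averaged 69.0 and 71.6, against 143 and 110 for Myh11. Contractile genes stood at both ends of the order, Acta2 at the top and Lmod1 and Tagln at the bottom.

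**Figure D1:**
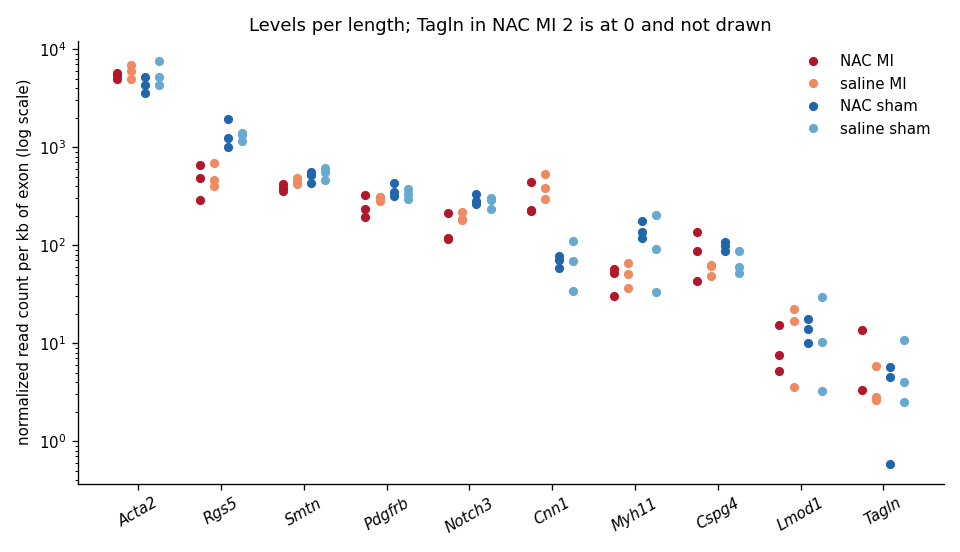
Normalized read counts per kilobase of exon (log axis) for the 10 members, 1 point per library, colored by group, with the members ordered by their mean over 12 libraries. Acta2 lies highest at a mean of 5336 and Tagln lowest at 4.70, and the MI and sham points of Cnn1 and Rgs5 lie apart; Tagln in NAC MI 2 is at 0 and is not drawn.

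Tagln encodes transgelin, an actin-binding protein that is usually abundant in smooth muscle. Its normalized counts were 6.57, 0 and 27.1 in NAC MI, 5.61, 5.20 and 11.7 in saline MI, 1.17, 11.4 and 8.91 in NAC sham, and 7.97, 4.96 and 21.4 in saline sham. The groups overlapped throughout, and 24 reads was the most in any library. The gene (ENSMUSG00000032085, chromosome 9, 45929619 to 45936058, minus strand, GRCm38) shares 62.4% of its exon bases with exons of the antisense gene Gm48529 on the other strand, which averaged 8.54 normalized reads. It also shares 5.43% with exons of Pcsk7, a protein-coding gene on the other strand, which averaged 548. The strand setting of the counting is not given in the sources used here, so reads of these overlapping genes cannot be told apart, and Tagln is reported as uncertain. Of 202 protein-coding genes with at least 50% of exon bases shared with the other strand, 37.1% passed the filter on low values, against 56.4% of 16618 genes that share none and 79.1% of 5060 genes that share less than 50%. What set the low Tagln level was not tested. Smaller parts of Smtn (16.3%) and Notch3 (6.03%) overlap exons of the other strand, and no exon base of the other 7 members does.

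The first question was what MI did to these genes a day after surgery, with both treatments averaged, 6 MI libraries against 6 sham libraries. Cnn1, which encodes calponin 1, an actin-binding regulator of smooth muscle contraction, rose after MI, and Rgs5, a pericyte gene for a regulator of G protein signaling, and Notch3 fell. The other 6 tested members did not pass. These 3 of 9 were called by limma at an adjusted p under 0.05, a rule that called 2.74% of the 14996 genes tested, 2.13% as higher and 0.613% as lower. At an unadjusted p under 0.05 there were 6 members and 20.2% of genes. Over the 9 members the median log2 fold change was -0.32, and over all genes tested it was -0.003. Without NAC sham 2, NAC MI 2 and saline sham 3 the log2 fold changes were 2.30 for Cnn1, -1.17 for Rgs5 and -0.61 for Notch3, and each still passed (largest adjusted p = 0.0330 in limma). That run called 2183 of the 14996 genes, against 411 in the main fit.

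Cnn1 had 633, 1221 and 609 normalized reads in NAC MI, 1451, 1051 and 819 in saline MI, 212, 159 and 195 in NAC sham, and 190, 94.3 and 303 in saline sham. Every MI library lay above every sham library, the lowest MI value being 609 and the highest sham value 303. The log2 fold change of MI against sham was 2.33 (SE 0.273, 5.02-fold, 95% interval 3.34- to 7.55-fold), with an adjusted p = 0.000745 in limma, and Cnn1 ranked 22nd of 14996 genes by p. Among all genes, 1.45% had all 6 MI libraries above all 6 sham libraries. The gene lies on the plus strand of chromosome 9 (ENSMUSG00000001349, 22099216 to 22109630, GRCm38) in 8 merged exons.

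Acta2, smooth muscle alpha actin, had 11860.0, 12632 and 10827 normalized reads in NAC MI, 14999, 13083 and 10792 in saline MI, 11339, 7812 and 9464 in NAC sham, and 11479.6, 9580.5 and 16755 in saline sham. Its groups overlapped, and the single highest library was a sham one. The log2 fold change was 0.19 (95% interval -0.18 to 0.57, adjusted p = 0.561 in limma). The count ratio of Cnn1 to Acta2 within a library, a ratio not corrected for length, was 0.0533 to 0.0968 in MI libraries and 0.00984 to 0.0206 in sham libraries, without overlap.

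Myh11, the smooth muscle myosin heavy chain and the most specific marker of mature smooth muscle here, had 228, 438 and 392 normalized reads in NAC MI, 504, 277 and 386 in saline MI, 1329, 1032 and 891 in NAC sham, and 700.2, 253 and 1557 in saline sham. The MI libraries lay at 504 or below, and 5 of the 6 sham libraries lay above them, saline sham 2 being the exception at 253. The log2 fold change was -1.22 (SE 0.353), and it did not pass (adjusted p = 0.0855 in limma). It passed in 4 of 19 alternative settings, DESeq2 among them, and edgeR did not call it. Of 12 runs without 1 library, 1 called it, the run without saline sham 2 (adjusted p = 0.00958 in limma). Without saline sham 3, its highest library, the log2 fold change was -0.90 (adjusted p = 0.0623 in limma).

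Smtn, smoothelin of contractile smooth muscle, had 1837, 1569 and 1667 normalized reads in NAC MI, 1923, 2133 and 1855 in saline MI, 2272, 1893 and 2435 in NAC sham, and 2718, 2005 and 2455 in saline sham. Its log2 fold change was -0.32 (SE 0.120, adjusted p = 0.161 in limma), with overlap between surgeries. Lmod1, leiomodin 1, which nucleates smooth muscle actin filaments, stood between 12.9 and 118 normalized reads, the range of saline sham alone. Its log2 fold change was -0.26 with a 95% interval of -1.44 to 0.93, which holds changes of either sign. Lmod1 had 13 to 99 reads per library, and its SD was 95.2% of its mean in saline sham. What set this spread was not tested.

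**Figure D2:**
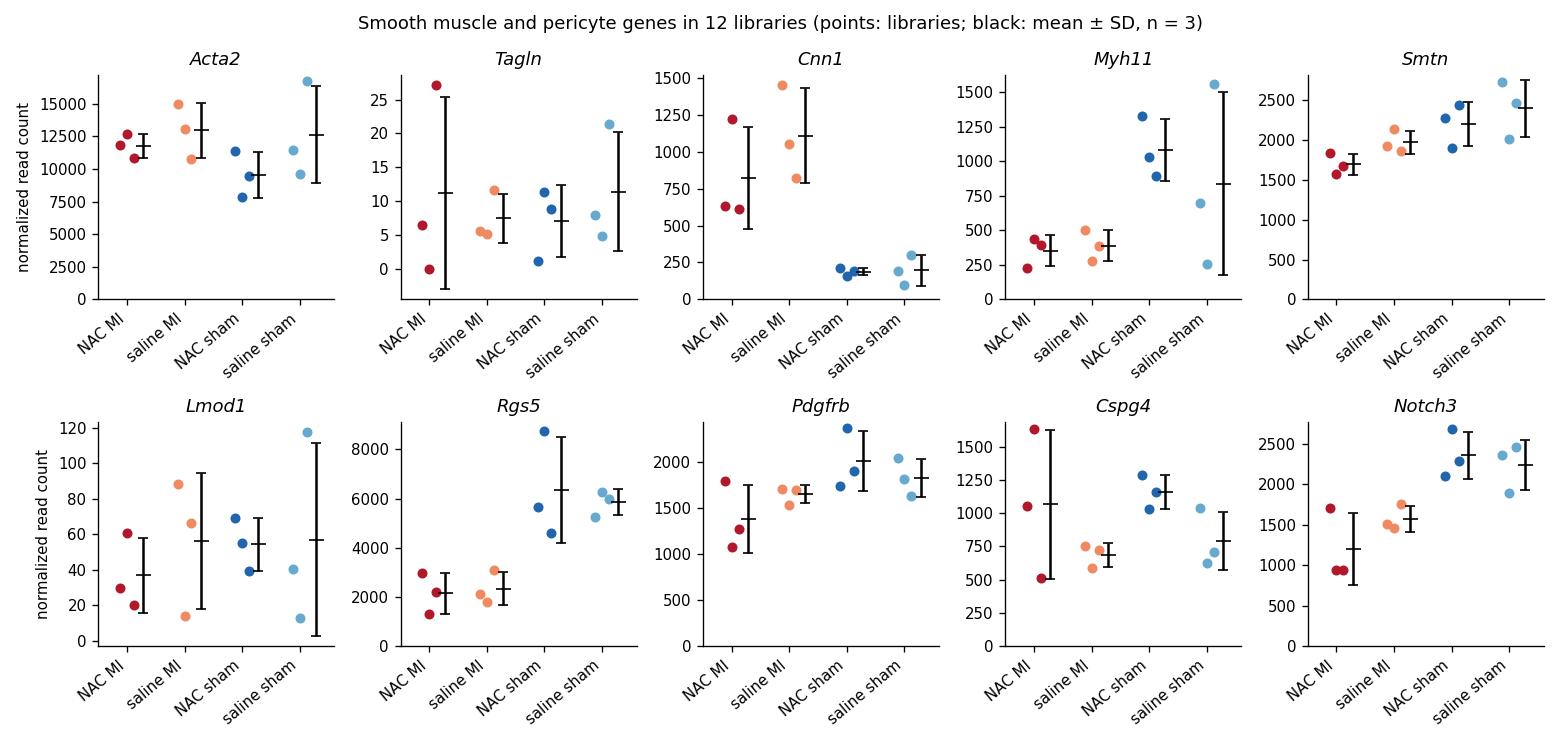
Normalized read counts (linear axis) of the 10 members in each of the 12 libraries, with the mean and SD of each group (n = 3) in black. Cnn1 is at least 609 in every MI library and at most 303 in every sham library, Rgs5 is at most 3106 after MI and at least 4609 after sham surgery, and Acta2 and Lmod1 overlap across all groups.

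Rgs5 had 2967, 1311 and 2195 normalized reads in NAC MI, 2108, 1809 and 3106 in saline MI, 5668, 8760.1 and 4609 in NAC sham, and 5260.3, 6278 and 6005 in saline sham. Every MI library lay below every sham library. The log2 fold change was -1.47 (SE 0.220, 0.362-fold, 95% interval 0.260- to 0.502-fold), with an adjusted p = 0.00344 in limma, and 0.76% of all genes had their MI libraries all below their sham libraries. Rgs5 (ENSMUSG00000026678) lies on the plus strand of chromosome 1, 169655501 to 169695813 (GRCm38), in 6 merged exons. Its nearest relative by name in the list of related genes, Rgs4, also fell, at 113 ± 25.2 after MI and 241 ± 81.5 after sham surgery (SD, n = 6 each, log2 fold change -1.06, adjusted p = 0.0310 in limma).

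Notch3, the Notch receptor of mural cells, had 1713, 937 and 948 normalized reads in NAC MI, 1506, 1458 and 1758 in saline MI, 2108, 2681 and 2291 in NAC sham, and 2367, 1890.3 and 2466 in saline sham. Again all 6 MI libraries lay below all 6 sham libraries, by a narrow gap from 1758 to 1890.3. The log2 fold change was -0.77 (SE 0.162, 0.588-fold), with an adjusted p = 0.0247 in limma. The call was lost without saline MI 1 (adjusted p = 0.0830 in limma), saline MI 2 (0.0696) or saline sham 1 (0.0705). The gene (ENSMUSG00000038146) lies on the minus strand of chromosome 17, 32120820 to 32166852 (GRCm38).

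Pdgfrb, the receptor for PDGF-B, had 1789, 1071 and 1269 normalized reads in NAC MI, 1707, 1532 and 1697 in saline MI, 1741, 2367 and 1904 in NAC sham, and 2043, 1808 and 1633 in saline sham. Its log2 fold change was -0.36 (SE 0.142) and did not pass (adjusted p = 0.190 in limma). Cspg4, the NG2 proteoglycan of pericytes, had 1052, 1632 and 516 normalized reads in NAC MI, 754, 585 and 726 in saline MI, 1285, 1030.0 and 1159 in NAC sham, and 1039, 622 and 710.5 in saline sham. It spread most within NAC MI, where it held both the lowest and the highest value of all 12 libraries, and its log2 fold change was -0.22 (95% interval -0.73 to 0.29, adjusted p = 0.638 in limma).

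Ratios within a library set the pericyte genes against each other. The count ratio of Rgs5 to Pdgfrb within a library, not corrected for length, was 1.18 to 1.83 in MI libraries and 2.42 to 3.70 in sham libraries, and that of Notch3 to Pdgfrb was 0.747 to 1.04 in MI libraries and 1.05 to 1.51 in sham libraries. Both ranges were apart, the second by a small margin. The ratio of Cnn1 to Rgs5 was 0.213 to 0.932 in MI libraries and 0.0150 to 0.0505 in sham libraries. These ratios combine genes already tested and carry no test of their own.

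**Figure D3:**
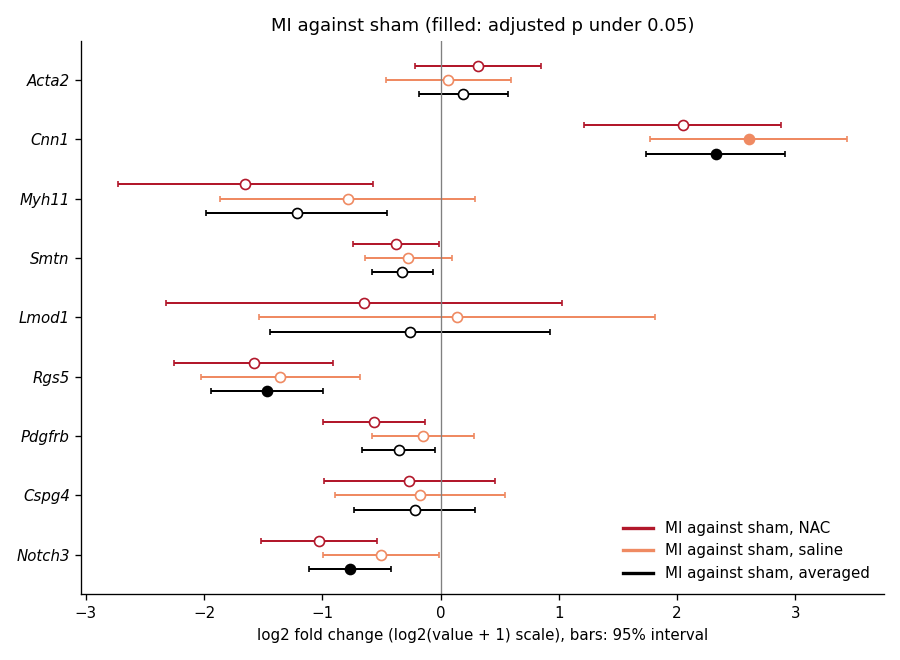
Log2 fold changes of MI against sham on the log2(value + 1) scale for the 9 tested members, with 95% intervals, after NAC, after saline and averaged over both; filled points passed at an adjusted p under 0.05 in limma. Cnn1 lies right of 0 at 2.05, 2.61 and 2.33, and Rgs5 and Notch3 lie left of 0 in all 3 comparisons.

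Within each treatment, the samples are 3 against 3, where an exact permutation test cannot give a p under 0.1. After NAC, 0 of the 9 members passed and 0.127% of all genes did (19 genes). Cnn1 was nearest at a log2 fold change of 2.05 (adjusted p = 0.0546 in limma), then Rgs5 at -1.58 (0.0649) and Notch3 at -1.03 (0.121), while Myh11 stood at -1.65 (0.274). At an unadjusted p under 0.05 the count was 6 of 9 members and 10% of all genes. DESeq2 called 3 members (Cnn1, Notch3 and Rgs5) and 241 of the 14996 genes, and edgeR 0 members and 28 genes. All 3 NAC MI libraries lay below all 3 NAC sham libraries for Myh11, Smtn, Rgs5 and Notch3, as for 9.96% of all genes, and above them for Cnn1, as for 9.08%.

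After saline, 1 of the 9 members passed, Cnn1, where 0.86% of all genes did, and 3 members and 11.4% of genes had an unadjusted p under 0.05. Its log2 fold change was 2.61 (SE 0.386, 6.09-fold, adjusted p = 0.00747 in limma), with means of 1107 ± 320 in saline MI and 196 ± 105 in saline sham (SD, n = 3 each). Without saline MI 1, the highest library, the log2 fold change was 2.39 and the adjusted p = 0.0685 in limma. Rgs5 averaged 2341 ± 679 in saline MI and 5848 ± 527 in saline sham (log2 fold change -1.35) and missed the threshold (adjusted p = 0.0657 in limma). It passed when only the 6 saline libraries were fitted, a run that called 507 of the 14996 genes. Notch3 stood at -0.50 (adjusted p = 0.427) and Myh11 at -0.78 (adjusted p = 0.591, both in limma). The 3 saline MI libraries lay below the 3 saline sham libraries for Rgs5 and Notch3, as for 8.15% of all genes, and above them for Cnn1, as for 10.4%.

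Whether NAC altered the response to MI was tested by the interaction, the difference between the 2 log2 fold changes. In limma 0 of 9 members and 0 of all genes passed (0% of genes tested). At an unadjusted p under 0.05 there were 0 members and 2.03% of all genes, and edgeR and DESeq2 called 0 members. For Cnn1 the log2 difference was -0.56 (95% interval -1.74 to 0.62), for Rgs5 -0.23 (-1.17 to 0.72), for Notch3 -0.52 (-1.22 to 0.17) and for Myh11 -0.87 (-2.39 to 0.66). The intervals of all 4 include 0 and reach below -1 on the log2 scale.

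The next comparisons asked what NAC did to the members under each surgery. After MI, limma called 0 of 9 members and 0% of genes, and 0 members and 9.22% of genes had an unadjusted p under 0.05. Smtn alone had separate groups, with 1837, 1569 and 1667 in NAC MI below 1923, 2133 and 1855 in saline MI (log2 fold change -0.22, adjusted p = 0.645 in limma), as had 11.5% of all genes in that direction. Of the 9, 8 were lower with NAC, as were 51.9% of all genes, and Cspg4 was higher, at 1067 ± 558 in NAC MI and 688 ± 90.7 in saline MI (SD, n = 3 each). Cnn1 averaged 821 ± 347 in NAC MI and 1107 ± 320 in saline MI, a log2 fold change of -0.47 with a 95% interval of -1.30 to 0.37. Within the prefix R230 the log2 difference of Cnn1 was -1.02 (1 NAC and 2 saline libraries), and within R235 it was 0.10 (2 NAC libraries and 1 saline library).

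After sham surgery, limma called 0 of 9 members and 0% of genes, and 0 members and 5.89% of genes had an unadjusted p under 0.05. Myh11 had the highest log2 fold change at 0.71 (95% interval -0.36 to 1.79), with 1084 ± 223 in NAC sham and 837 ± 662 in saline sham. Cspg4 had 1158 ± 128 in NAC sham and 791 ± 220 in saline sham (log2 0.58, 95% interval -0.14 to 1.30), and Acta2 9538 ± 1765 in NAC sham and 12605 ± 3717 in saline sham (log2 -0.38, 95% interval -0.91 to 0.15, SD, n = 3 each). Rgs5 and Notch3 had log2 fold changes of 0.07 and 0.08. Within the prefix R207, which held NAC sham 2 and saline sham 1 and 2, the log2 difference of NAC against saline was 1.29 for Myh11, 0.61 for Rgs5 and -0.42 for Acta2.

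Averaged over both surgeries, 0 of 9 members and 0% of genes passed in limma, and edgeR called 0 and DESeq2 432 genes, no member among them. One member, Cspg4, had an unadjusted p under 0.05, as had 15.5% of all genes. Its log2 fold change was 0.53 (SE 0.236, adjusted p = 0.301 in limma), with 1112 normalized reads on average in the 6 NAC libraries and 739 in the 6 saline libraries, which overlapped. The other 8 members lay between -0.25 (Acta2) and 0.28 (Myh11).

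**Figure D4:**
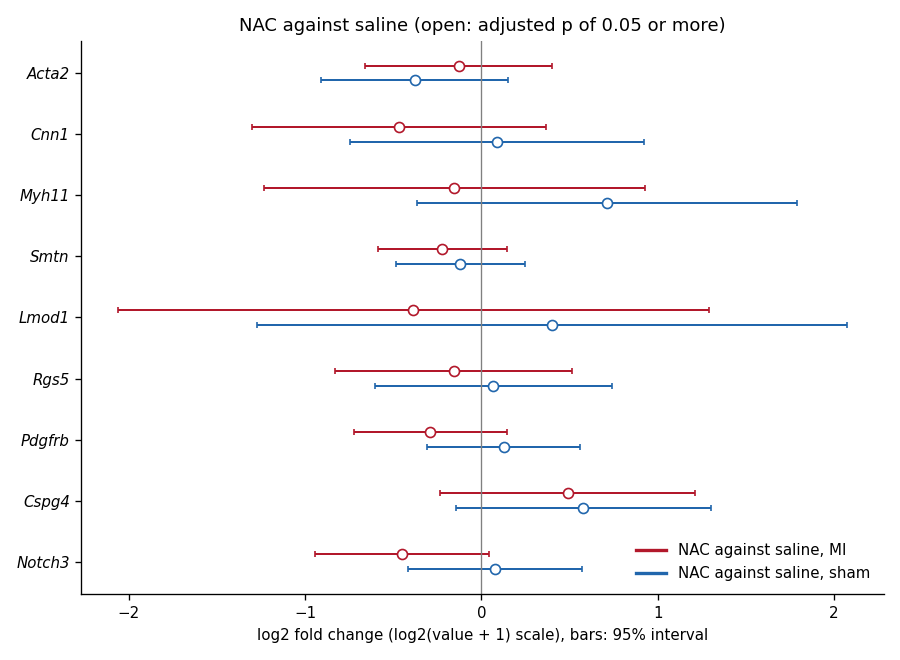
Log2 fold changes of NAC against saline on the log2(value + 1) scale for the 9 tested members, with 95% intervals, among MI libraries and among sham libraries. None passed in limma, and the interval of every member includes 0, from the narrow interval of Smtn to that of Lmod1, which spans more than 3 log2 units.

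Of the 5 tested contractile genes, Acta2, Cnn1, Myh11 and Lmod1 were each highest in the same library of each group: NAC MI 2, saline MI 1, NAC sham 1 and saline sham 3. Smtn was highest in another library of each group and lowest in NAC MI 2. Saline sham 2 was the lowest of its group for all 5 tested contractile genes. After removal of group means, Acta2 and Cnn1 had a Pearson r of 0.86 over the 12 libraries, Cnn1 and Myh11 0.83, and Myh11 and Lmod1 0.84, whereas Smtn stood at 0.03 with Lmod1 and 0.47 with Acta2. These values describe libraries that share cells and depth and carry no test.

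Rgs5, Pdgfrb and Notch3 ranked the libraries alike in some groups. All 3 were highest in NAC MI 1 and in NAC sham 2 and lowest in NAC MI 2 among their groups, and with Cspg4 they were lowest in saline MI 2. In saline sham no library was highest for more than 1 of the 3, with Pdgfrb highest in replicate 1, Rgs5 in replicate 2 and Notch3 in replicate 3. With group means removed, Pdgfrb and Notch3 had an r of 0.80, Rgs5 and Pdgfrb 0.74, and Rgs5 and Notch3 0.67. The fourth gene, Cspg4, had an r of -0.37 with Rgs5 and -0.07 with Pdgfrb, and of 0.52 with Cnn1. NAC MI 2, lowest for Rgs5, Pdgfrb and Notch3, was also the lowest of all 12 libraries for the sum of 12 endothelial markers (34607, against 57664 or more in the others), and NAC sham 2 was the highest (130485). The part of these cells in the order of libraries was not tested.

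Among the 9 members, the genes with the most similar pattern over the 12 libraries were named by Pearson r of log2 values, as a description. For Cnn1 these were Slpi (r = 0.961), a protease inhibitor, Fkbp11 (0.960) and Timp1 (0.948), an inhibitor of metalloproteinases, and for Rgs5 they were Cavin2 (0.972), a caveolar coat protein, and Mex3b (0.957). Notch3 was nearest to Drd2 (0.972), Mycn (0.962) and Trpv3 (0.950), of which Drd2 and Trpv3 were at 0 in at least 1 library. Acta2 was nearest to Kars (0.978), a lysyl-tRNA synthetase, and Slc25a5 (0.966), a carrier of the inner mitochondrial membrane, and Myh11 to Acan (0.944), the proteoglycan aggrecan. For Smtn the nearest was Cabp1 (0.916), for Lmod1 Gins3 (0.865), for Pdgfrb Prag1 (0.946) and for Cspg4 Dnajc18 (0.943). The pattern of Cnn1, Rgs5 and Notch3 holds the difference between surgeries, which any gene changed by MI shares.

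Other genes of mural cells were read from a list of 25, all of them tested. After MI, averaged over treatments, 7 were higher and 18 lower than after sham surgery, with a median log2 fold change of -0.35, and 1 passed as higher and 2 as lower in limma. Over all genes tested, 2.13% passed as higher and 0.613% as lower in this comparison, with a median log2 of -0.003. These shares stand beside the counts of the lists below too. Vtn, vitronectin, which pericytes secrete, fell to 28.9 ± 14.0 after MI, against 93.3 ± 37.5 after sham surgery (log2 -1.74, adjusted p = 0.00553 in limma). Mylk, the kinase that activates smooth muscle myosin, fell to 345 ± 69.7, against 698 ± 179 (log2 -0.996, adjusted p = 0.0153 in limma, SD, n = 6 each). Des, desmin, an intermediate filament of all muscle including heart muscle, rose to 18417 ± 3955 after MI, against 8932 ± 3197 after sham surgery (adjusted p = 0.0490 in limma), a call lost in 11 of 19 alternative settings. The call of Mylk was lost without saline MI 1 (adjusted p = 0.0563 in limma). Abcc9 and Kcnj8, the subunits of the pericyte KATP channel, had log2 fold changes of -0.58 and -0.48 and did not pass (adjusted p = 0.0901 and 0.229 in limma). With NAC averaged over surgeries, 0 of the 25 passed, and Abcc9 had the smallest p at a log2 fold change of 0.79 (adjusted p = 0.172 in limma).

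Relatives of the members show which family genes shared a direction. Of 19 tested relatives, Acta1, skeletal alpha actin, rose to 5180.4 ± 1061 after MI, against 1600.2 ± 661 after sham surgery (log2 1.77, adjusted p = 0.000559 in limma), and Rgs4 fell, a call lost in 4 of 19 alternative settings. The other calponins, Cnn2 and Cnn3, had log2 fold changes of 0.37 and -0.31, and transgelin 2, Tagln2, 0.19, and none of them passed. The enteric smooth muscle actin Actg2 stood at 101 ± 44.7 after MI and 156 ± 136 after sham surgery and did not pass. Notch1 and Notch4 had log2 fold changes of -0.79 each (adjusted p = 0.0576 and 0.0574 in limma), near that of Notch3, and Notch2 stood at 0.34.

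Of 22 genes of the SRF and myocardin axis, 15 were higher after MI, 4 passed as higher and 0 as lower, with a median log2 of 0.18. The 4 were Acta1, Ankrd1, a stress-induced ankyrin repeat protein of heart muscle, Pdlim7 (log2 0.67), a LIM protein of actin filaments, and Actn1 (log2 0.57), non-muscle alpha actinin. The call of Pdlim7 was lost in 4 and that of Actn1 in 9 of 19 alternative settings. Ankrd1 had 20039 ± 4221 normalized reads after MI and 7606 ± 2769 after sham surgery (SD, n = 6 each). Srf itself stood at 2392 ± 661 after MI and 1985 ± 499 after sham surgery, and Myocd, myocardin, at 1003 ± 265 and 1017 ± 463 in the same order (SD, n = 6 each), and neither passed (adjusted p = 0.408 and 0.923 in limma). Of 5 PDGF genes 0 passed. Pdgfb, the ligand of Pdgfrb, had 1376 ± 511 normalized reads after MI and 2222 ± 691 after sham surgery (log2 -0.75, adjusted p = 0.139 in limma).

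Of 14 Notch genes, 3 were higher and 11 lower after MI, with a median log2 of -0.53, and 2 passed as lower. Jag2, a ligand, fell to 973 ± 313 after MI, against 1627 ± 334 after sham surgery (log2 -0.80, adjusted p = 0.0432 in limma). Nrarp, a target and feedback inhibitor of the pathway, fell to 112 ± 33.7, against 234.9 ± 81.9 (log2 -1.04, adjusted p = 0.0441 in limma, SD, n = 6 each). Jag1, a ligand that endothelial cells present to mural cells, had a log2 fold change of -0.53 (adjusted p = 0.107) and Heyl, a target in mural cells, -0.14 (adjusted p = 0.621, both in limma). The calls of Jag2 and Nrarp were each lost in 9 of 19 alternative settings.

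Of 16 TGF-beta genes, 8 were higher and 2 passed as higher, Ccn2 (log2 1.28) and Tgfbi (1.01), both known targets of the pathway, while the receptors and Smad genes did not pass. The call of Tgfbi was lost without saline MI 1 or saline sham 1 (larger adjusted p = 0.0536 in limma). Of 13 genes of activated fibroblasts, 11 were higher (median log2 0.71) and 2 passed, Cthrc1 (log2 1.19) and Tnc (1.02), the call of Tnc being lost in 10 of 19 alternative settings. Their summed level was 168010 to 253092 in NAC MI, 185995 to 272245 in saline MI, 115307 to 166526 in NAC sham and 108141 to 170865 in saline sham, with no gene at 0. The sums of MI and sham libraries overlapped narrowly, with NAC MI 3 at 168010 and saline sham 2 at 170865. The part of these genes in the Cnn1 level was not tested. Acta2, itself a known gene of activated fibroblasts, did not pass.

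**Figure D5:**
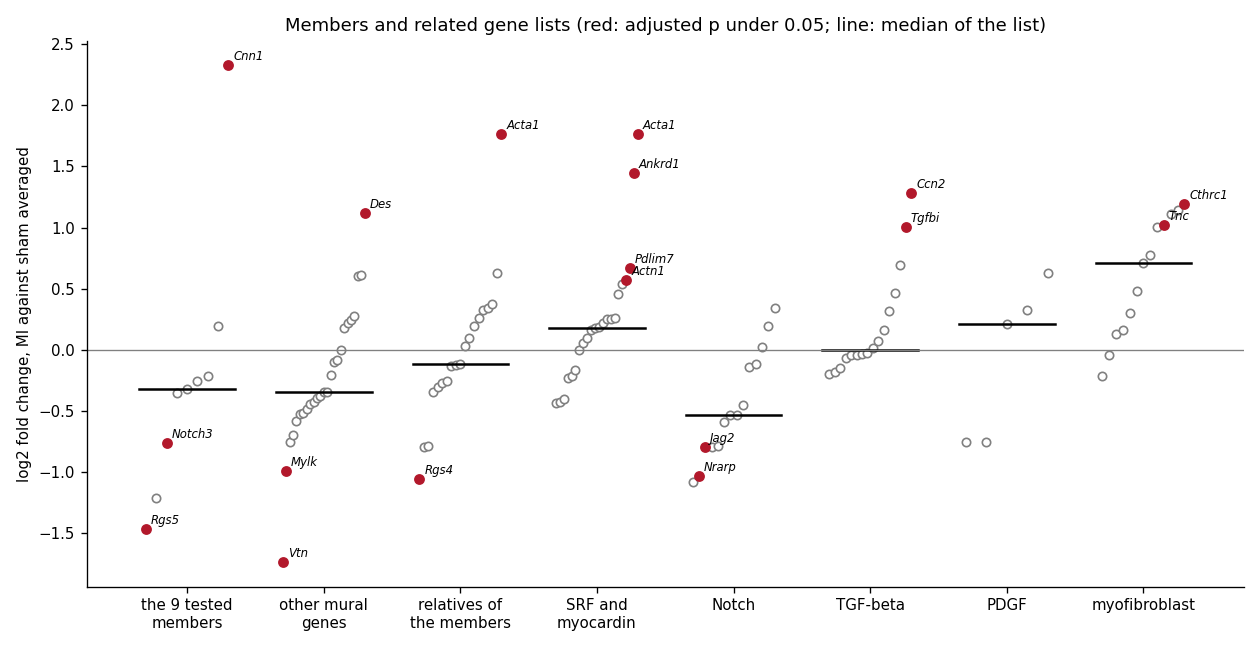
Log2 fold changes of MI against sham, averaged over treatments, for the 9 tested members and the 7 lists of related genes, 1 point per gene, with the median of each list as a line. Red points passed at an adjusted p under 0.05 in limma and are named; the medians run from -0.53 for Notch genes to 0.71 for activated fibroblast genes, and some genes stand in more than 1 list.

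Markers of other cell types stood beside the fall of Rgs5 and Notch3. Of 12 endothelial markers, 12 were lower after MI averaged over treatments, with a median log2 of -0.52, and 0 passed (smallest adjusted p = 0.0959 in limma). Their sums were 34607 to 87570.0 in NAC MI, 66593 to 80046 in saline MI, 57664 to 130485 in NAC sham and 101656 to 112482 in saline sham, with no marker at 0. Under saline the endothelial sums of MI and sham libraries did not overlap, and under NAC they did. The median log2 fold change of these markers was -0.52 after saline, with 12 lower, and -0.54 after NAC, with 10 lower and 2 higher. The part of a lower endothelial and vessel content in the fall of Rgs5 and Notch3 was not tested. Of 12 fibroblast markers, 11 were higher after MI (median log2 0.56, 0 passed). Their sums were 177243 to 268055 in MI libraries and 120973 to 176462 in sham libraries, without overlap by a narrow gap. Of 8 epicardial markers, 7 were higher and 4 passed (Krt8, Krt18, Krt19 and Upk1b), with sums of 19632 in NAC MI 2, 3220 to 4495 in the other MI libraries and 1524 to 3717 in sham libraries. Of 8 neutrophil markers, 8 were higher and 6 passed, and of 12 macrophage markers 12 were higher (median log2 1.75) and 1 passed, Cd14. The macrophage median was 3.31 after saline, with 12 higher, and 0.35 after NAC, with 9 higher and 3 lower. Macrophage sums were 1041 in NAC MI 2 and 9097 to 13277 in the other MI libraries. They were 21919 in NAC sham 2 and 775 to 1602 in the other sham libraries. Of 10 stress genes of heart muscle, 10 were higher after MI (median log2 1.58) and 9 passed. Among the 9 were Acta1, Ankrd1, Des and Ccn2, already counted in the lists above. The sums of the 10 stress genes were 57954 to 94949.5 in MI libraries and 19482 to 46540.2 in sham libraries, without overlap, and only Sprr1a was at 0 in a library. The part of these cells and of heart muscle stress in the rise of Cnn1 was not tested.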

How the data were processed

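RNA of the isolated cells had been extracted with Trizol and made into poly-A libraries, per the labels' protocols. STAR 2.7.10a, the build mm10 and DESeq2 1.44.0 are listed in the submitters' processing notes. The gene counter, annotation release and strand setting are not given in the sources used here. The deposited values are a signal: the authors scaled each library's counts per gene by 1 size factor. The lowest value above 0 in each library was taken as 1 read. Divided by it, 100% of values came within 0.01 of a whole number, giving 14353842 to 25118341 reads per library. No pair of libraries held identical values.

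Values were tested as log2(value + 1) with limma 3.58.1 in R 4.3.3 (trended prior variance, 4 group means over 12 libraries, 8 residual degrees of freedom) on the 14996 genes with a mean of at least 10. Tests were two-sided with Benjamini-Hochberg adjustment over those genes, and adjusted p under 0.05 was called. Folds are on the log2(value + 1) scale and understate changes of low genes. The fit was tested on simulated data of independent libraries, with the same dispersion for all genes and changes in saline MI only. The real libraries were uneven, with quality weights from 0.250 to 4.70, and that simulation does not cover such differences. edgeR 4.0.16 and DESeq2 1.42.0 ran on recovered reads as alternatives, beside another pseudocount, no filter, TMM scaling, library weights, fewer libraries and the title prefix. No replicate number pairs libraries across groups, while title prefixes of unstated meaning are shared by some NAC and saline libraries. The smallest exact permutation p for 3 against 3 is 0.1.

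Identifiers were matched to symbols, exons and positions on GRCm38 for 52079 of 52336 genes. The text names all 10 members, the genes of the related lists that passed, some of those with the smallest p, and the nearest genes by correlation, leaving out predicted and clone names; in addition, list genes such as Srf, Cnn2 or Heyl were named for their roles with their values known. A gene of 1 list and a gene near Rgs5 by correlation are not reported here. The members and lists were chosen with earlier results of these data known.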

Additional observations from a re-analysis of the deposited data

How the results depend on the processing

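Averaged over treatments, Cnn1 (log2 2.10 to 2.52) and Rgs5 (-1.60 to -1.17) passed in all 19 alternatives and Notch3 in 16. The members called there numbered 5 with library weights, which added Myh11 and Smtn, and 2 to 4 without 1 library. After saline, where 1 was called, there were 2 with DESeq2, 3 with weights, 2 without saline sham 3, NAC sham 2 and NAC MI 2 together, 2 with the libraries of the comparison only, and 0 to 1 without 1 library. After NAC, where 0 were called, there were 1 with a pseudocount of 5, 3 with DESeq2, 3 with weights, 2 without those 3 libraries, and 0 to 2 without 1 library, the 2 being Rgs5 and Notch3 without NAC MI 1. In the NAC comparisons and the interaction 0 members passed in any alternative run. Genes called after MI numbered 129 under saline (DESeq2 464, weights 2915, 3 libraries out 1807, comparison only 507, 1 library out 15 to 105), 19 under NAC (241, 806, 575 and 1, pseudocount of 5 43, 1 library out 8 to 67), and 411 averaged (1218, 4187, 2183, 1 library out 133 to 1563). For NAC, 0 became 47 with DESeq2, 421 with weights and 418 with 3 libraries out after sham (1 library out 0 to 80), 10 and 685 with DESeq2 and weights after MI (0 to 4), and 432, 2021 and 328 averaged (0 to 250); for the interaction it became 1 with DESeq2 and 6 with 3 libraries out (0 to 4). TMM scaling moved the median of all genes by at most 0.0189 (log2). No analysis paired by replicate was possible, because the labels carry no replicate number that pairs libraries across groups. Title prefixes are shared by some libraries, and with the prefix as a term for NAC against saline after MI 0 members and 0 genes passed. List genes were put through the same alternatives after their values were seen: Vtn, Acta1, Ankrd1, Ccn2 and Cthrc1 passed in 19 of 19, and Des in 8 and Tnc in 9.

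Signs that turned were all of values that did not pass. MI after saline: Lmod1 -0.0029 (edgeR) and -0.021 (DESeq2). NAC after sham: Cnn1 -0.036 and Lmod1 -0.047 (edgeR), Cnn1 -0.051 and Lmod1 -0.063 (DESeq2), Rgs5 -0.072, Pdgfrb -0.077 and Notch3 -0.030 (weights), and without the 3 libraries Smtn 0.011, Rgs5 -0.17 and Pdgfrb -0.078. NAC after MI: Rgs5 0.25 (weights) and 0.16 (3 libraries out). NAC averaged: Lmod1 -0.026 (pseudocount), -0.31 (edgeR), -0.33 (DESeq2) and -0.18 (weights), Rgs5 0.014, 0.0024 and 0.088 (edgeR, DESeq2, weights). Interaction: Cspg4 0.090, 0.084 and 0.065 (edgeR, DESeq2, weights), Acta2 -0.081, Rgs5 0.32 and Pdgfrb 0.0049 (weights), Acta2 -0.16 and Rgs5 0.33 (3 libraries out). Without 1 library the ranges that held both signs were, for MI after saline, Acta2 -0.11 to 0.29, Cspg4 -0.33 to 0.041 and Lmod1 -0.64 to 0.92. For MI after NAC it was Cspg4 -0.65 to 0.18, and for MI averaged Cspg4 -0.41 to 0.0050 and Lmod1 -0.65 to 0.14. For NAC after MI they were Lmod1 -1.17 to 0.11, Myh11 -0.37 to 0.13 and Rgs5 -0.43 to 0.16. For NAC after sham they were Cnn1 -0.36 to 0.48, Lmod1 -0.38 to 1.17, Notch3 -0.041 to 0.15 and Rgs5 -0.19 to 0.27. For NAC averaged they were Cnn1 -0.41 to 0.0070, Lmod1 -0.39 to 0.39, Myh11 -0.059 to 0.59, Pdgfrb -0.18 to 0.00042 and Rgs5 -0.18 to 0.12. For the interaction they were Cspg4 -0.47 to 0.36, Rgs5 -0.49 to 0.094 and Smtn -0.21 to 0.019. The causes were not tested. Lmod1 and Tagln had the fewest reads of the members, with 13 to 99 and 0 to 24 per library.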
